A study of Rattus norvegicus with 6 samples.

Results

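The O-glycan, galactosyl and endoplasmic reticulum (ER) glycosylation genes of the rat kidney inner medulla were compared between 3 control and 3 diabetic rats. Members were taken by name from the deposited table, with a rule that names the GalNAc transferases (Galnt), the galactosyltransferases (B3galt, B4galt), the N-acetylglucosaminyltransferases B3gnt and Gcnt, the mannosidases (Man1, Man2), the Alg and Dpm enzymes, Stt3, Ganab, Pomt and the mucins, as well as Rpn1, Rpn2, Ddost and Mogs, which were not analysed here. The rule found 76 of 27321 features. Of these, 62 were single genes, 1 was a feature that merged B3galt5 with F1LUD5_RAT, and 13 were intervals between a member and its neighbour. All rats were male Sprague-Dawley rats of 3 months. The diabetic rats were given streptozotocin (STZ), which destroys insulin-producing cells, at a dose of 62.5 mg/kg in citrate buffer by tail vein, and the controls received the buffer alone. Tissue was the inner medullary (IM) tip, taken 15 days later.

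N-glycans are assembled on the lipid dolichol in the ER by the Alg enzymes with mannose supplied through dolichol phosphate mannose, moved to the nascent protein by the oligosaccharyltransferase, and trimmed by glucosidases and mannosidases before they are extended in the Golgi. Mucin-type O-glycans start when a Galnt enzyme puts GalNAc on serine or threonine. Gcnt enzymes then add branches, and galactosyltransferases and B3gnt enzymes lengthen the chains on both kinds of glycan. In the collecting duct, N-glycans decorate membrane transporters such as the urea transporter UT-A1.

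Values are normalized counts, that is, reads on a feature divided by the size factor of its library. The libraries held between 3412311 and 5575171 reads on features, and 1 read amounted to 0.763 to 1.11 normalized counts depending on the library. The collecting duct markers Aqp2, Aqp3, Aqp4 and Scnn1b had a summed level of 10673 to 18634 normalized counts in control and 18151 to 35206 in STZ libraries, and none of the 4 passed the test. Aqp2 and Scnn1b were higher in each STZ library without passing, and Aqp3 and Aqp4 overlapped between groups. Markers of intercalated cells were lower in STZ (3 of 4 passed), and so was the thick limb marker Umod (1 of 2 passed). The other thick limb marker, Slc12a1, was lower in each STZ library without passing. Of 4 endothelial markers Plvap passed as lower, and Cdh5 and Tek were lower in each STZ library without passing. Pecam1 overlapped between groups, with a mean of 780 normalized counts in control and 774 in STZ. Of 5 fibroblast and pericyte markers Pdgfra passed as higher, with a mean of 535 normalized counts in control and 1073 in STZ. Dcn, Col1a1, Col1a2 and Pdgfrb overlapped between groups and did not pass. The summed level of this list was 7507 to 9082 normalized counts in control and 4729 to 10854 in STZ libraries. The part of these cell types in the results was not tested. In whole tissue, fewer cells of a type and less RNA per cell cannot be told apart. Lane 3 of the sequencer held every control library and lanes 6, 7 and 8 held 1 STZ library each, so that an effect of lane and one of STZ cannot be told apart. Olfactory receptor genes, taken as background, had a 95th percentile of 2.05 (replicate 1), 6.33 (replicate 2) and 10.02 (replicate 3) in the control group and of 1.86, 5.93 and 9.03 normalized counts in the STZ group.

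Genes were compared with limma on log2(normalized count + 1) over 13486 features, those averaging 5 or more over the libraries. Adjusted p-values are by the method of Benjamini and Hochberg over all of these features. In that comparison 283 features passed an adjusted p of 0.05, which was 2.1% of those tested. Among the members, 47 were tested and 2 passed, Gcnt3 and Man1c1, and both were higher in STZ. The share of all features that passed and were higher in STZ was 1.17%. Gcnt3 and Man1c1 also passed in edgeR, in DESeq2 and in limma blocked on replicate number, where 2.13%, 4.43% and 4.16% of all features passed. In limma without the intensity trend neither passed, with an adjusted p of 0.110 for Gcnt3 and 0.165 for Man1c1. No member passed as lower in STZ in limma, edgeR or DESeq2. At an unadjusted p under 0.05, which 14.7% of all features had in limma, there were 5 members, namely Gcnt3, Man1c1, Galnt10 and B4galt4 (higher) and Alg12 (lower). The log2 fold change of STZ over control was above 0 for 24 members and below 0 for 23. The median was 0.0065 over the tested members and 0.0056 over all features.

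**Figure D1:**
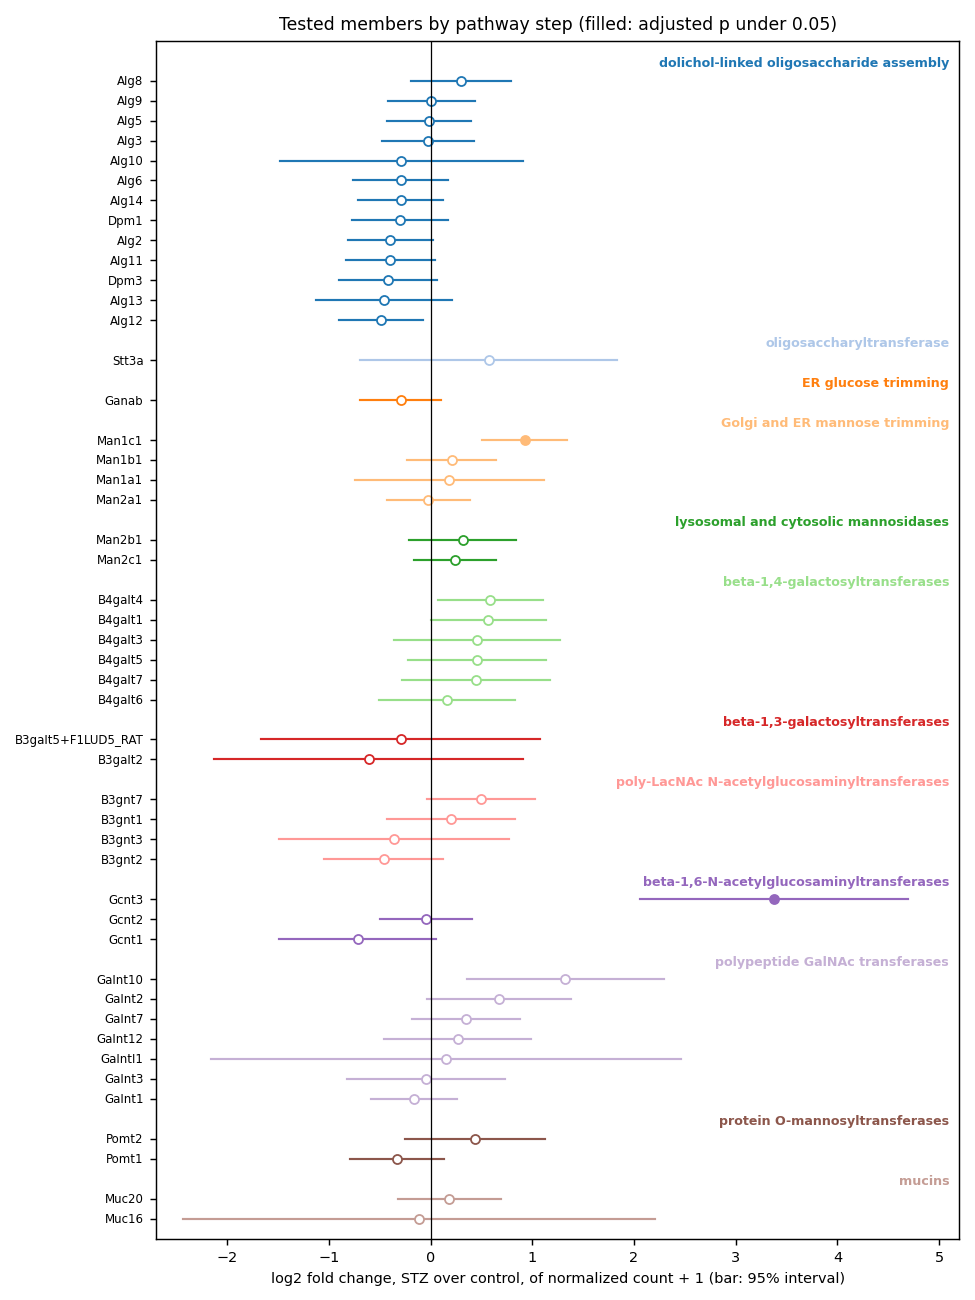
For STZ against control, the difference in log2(normalized count + 1) is plotted for each of the 47 tested members with its 95% interval from limma, grouped by pathway step. The 2 filled points, Gcnt3 at 3.37 and Man1c1 at 0.93, have an adjusted p under 0.05.

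The 45 members that did not pass had log2 fold changes from -0.72 to 1.32 and adjusted p-values from 0.167 to 0.996 in limma. For 25 of the 47 tested members, the 95% interval lay within 1 log2 unit of no difference on either side. For the other members that did not pass, the interval reached past 1 log2 unit on at least 1 side.

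Gcnt3, the core 2 and core 4 branching enzyme of mucin-type O-glycans, had the largest difference among the tested members. It is known for its expression in mucus-secreting epithelia. Its level was 7.18, 0.763 and 2.23 normalized counts in the control libraries and 32.5, 58.4 and 25.1 in the STZ libraries. The groups did not overlap, and control replicates 2 and 3 held 1 and 2 reads, under the floor of 3. Gcnt3 rose by a log2 fold change of 3.37 (SE 0.60, 95% interval 2.06 to 4.69), with an adjusted p of 0.018 in limma. The mean was 3.39 ± 3.36 (SD, n = 3) in control and 38.7 ± 17.5 (SD, n = 3) in STZ. With a control mean under 5, Gcnt3 met the minimum for testing through its level in STZ. The exact permutation test gave p = 0.1, the smallest that 3 against 3 libraries allows.

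The adjusted p of Gcnt3 was 0.0183 in edgeR and 5.33e-05 in DESeq2 on the recovered reads. Without control replicate 2 it was 0.054 in limma, with a log2 fold change of 2.86, and without STZ replicate 2 it was 0.127, with a log2 fold change of 3.04. Gcnt3 lies at chr8:74470612-74474086 on rn4. Of the 4 features within 40 kb of it, 3 were tested and none passed, with log2 fold changes from -0.46 to 0.05.

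The summed level of the urothelial markers was higher in each STZ library, as was Gcnt3. This summed level was 85.4 to 132 normalized counts in control and 440 to 517 in STZ libraries, over the 5 uroplakins analysed here. Upk3a and Upk1b passed the test and the other 3, Upk1a, Upk2 and Upk3b, did not. Upk3a, a subunit of the urothelial plaque, rose from 27.7, 28.2 and 50.1 to 332, 367 and 333 normalized counts. It made up most of the summed level in the STZ libraries. Upk1b rose from 29.7, 20.6 and 37.8 to 58.5, 85.1 and 67.3. Upk1a, which forms plaques with Upk2, stayed within the range 14.9 to 50.2 in both groups. No uroplakin was at 0 in a library. The part of the urothelium in the Gcnt3 result was not tested.

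Of the secretory epithelium markers 1 of 5 was high enough to be tested. Tff3, a secreted trefoil peptide, fell from 158, 204 and 256 normalized counts to 57.6, 20.8 and 39.2. It passed as lower in STZ, with an adjusted p of 0.00548 in limma. Agr2, an ER protein needed to make mucins, was at 1.03, 0.763 and 1.11 in control and 2.79, 10.9 and 4.02 in STZ, too low for the test. Spdef, Foxa2 and Foxa3, the transcription factors of goblet cells, had at most 6.02 normalized counts in a library.

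**Figure D2:**
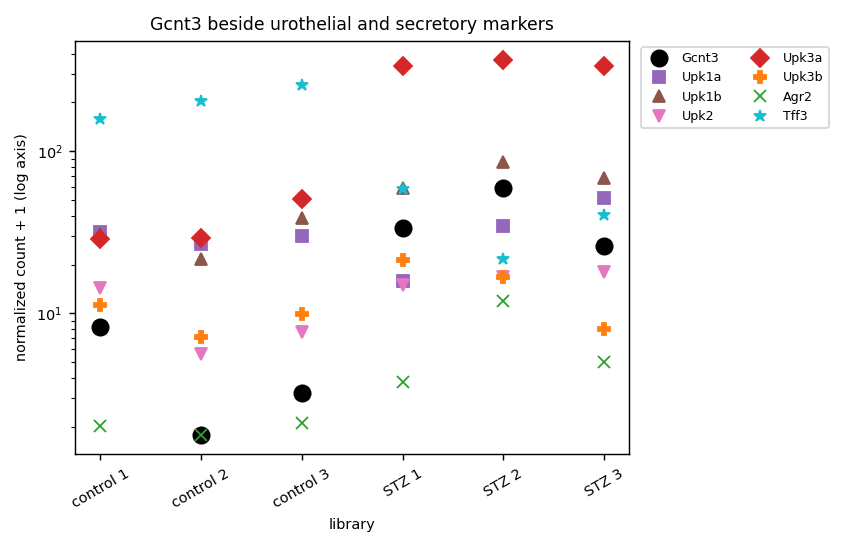
The normalized count + 1 of Gcnt3 (black circles) is plotted on a log axis in each of the 6 libraries, beside 5 uroplakins, Agr2 and Tff3. Gcnt3, Upk3a, Upk1b, Upk2 and Agr2 were above every control library in each STZ library. Tff3 was below, and Upk1a and Upk3b overlapped.

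The other Gcnt members did not pass. Gcnt1, the core 2 enzyme of leukocytes and many epithelia, was at 59.5, 70.2 and 34.5 normalized counts in control and 43.6, 35.6 and 20.1 in STZ, and the groups overlapped. On the log2 scale the fold change was -0.72 with an SE of 0.35, and limma gave an adjusted p of 0.384. Gcnt2, which makes I branches on lactosamine chains, had a log2 fold change of -0.04 (SE 0.21). The range was 120 to 160 normalized counts in control and 123 to 162 in STZ.

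Man1c1, a Golgi mannosidase that trims high-mannose N-glycans so that complex chains can form, was the other member that passed. It had 111, 122 and 117 normalized counts in control and 252, 228 and 191 in STZ, and the lowest STZ library was above the highest control. Man1c1 rose by a log2 fold change of 0.93 (SE 0.19, 95% interval 0.51 to 1.35), with an adjusted p of 0.0349 in limma. The means were 117 ± 5.67 and 224 ± 30.7 (SD, n = 3 each), and the exact permutation test gave p = 0.1. The adjusted p was 0.0314 in edgeR and 0.00292 in DESeq2.

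The call of Man1c1 was kept in 1 of the 6 fits with a library left out. Leaving out a library gave adjusted p-values in limma of 0.0887 (control replicate 1), 0.117 (control replicate 2), 0.0452 (control replicate 3), 0.123 (STZ replicate 1), 0.144 (STZ replicate 2) and 0.0529 (STZ replicate 3), while the log2 fold change stayed between 0.84 and 1.04. Man1c1 lies at chr5:153318030-153459786 on rn4, and none of the 3 tested features within 40 kb passed.

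The promoters of both genes are shown because they are unlike in base composition. Each runs from 250 bases before to 50 after the RefSeq start on GRCr8, 5′ to 3′ on the gene's strand, with CG dinucleotides in capitals. Both windows lie on the minus strand, at chr8:79573508-79573807 for Gcnt3 and chr5:152196890-152197189 for Man1c1.
Gcnt3: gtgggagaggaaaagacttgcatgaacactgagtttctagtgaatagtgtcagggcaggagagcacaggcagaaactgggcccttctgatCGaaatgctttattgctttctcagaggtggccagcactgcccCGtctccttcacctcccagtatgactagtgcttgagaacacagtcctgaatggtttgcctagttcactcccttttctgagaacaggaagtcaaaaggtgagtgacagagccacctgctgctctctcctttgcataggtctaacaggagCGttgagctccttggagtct
Man1c1: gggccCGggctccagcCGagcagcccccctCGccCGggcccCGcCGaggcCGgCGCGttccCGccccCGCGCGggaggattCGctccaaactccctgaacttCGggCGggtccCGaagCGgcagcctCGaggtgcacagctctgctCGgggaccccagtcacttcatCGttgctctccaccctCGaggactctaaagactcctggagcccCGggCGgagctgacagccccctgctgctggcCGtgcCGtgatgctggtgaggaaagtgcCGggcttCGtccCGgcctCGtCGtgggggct
The Gcnt3 window held 3 CG dinucleotides, an observed over expected ratio of 0.158, and stood at percentile 20.4 of all 33469 promoters. The Man1c1 window held 31, a ratio of 0.802, and stood at percentile 80.5. Man1c1 had 3 matches to the GC box GGGCGG, at -190, -147 and -39 from the start, and Gcnt3 had none on either strand. These letters describe the windows and say nothing of the factors that use them.

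A window was found for 54 of the 63 members that are genes. For B3gnt1 and Galntl1 it was found under the newer symbols B4gat1 and Galnt16, and for the merged feature it is that of B3galt5. Their median CpG ratio was 0.70, against 0.392 over all promoters. It was 0.747 in the 43 that were tested and 0.355 in the 11 that were not. For the 14 ER genes it was 0.841. A GC box on either strand was found in 53.7% of the member windows and in 33.1% of all windows, and a TATA box (TATAAA) in 5.56% against 14.2%. The share with a CCAAT box was 31.5% against 37.5%. The GC box was in 58.1% of tested and 36.4% of untested member windows. The set of all promoters was taken whatever the level of the gene here. The ER stress element, CCAAT and CCACG with 9 bases between them, was in none of the 54 windows and in 0.0657% of all promoters. Its other form ERSE-II was also in none, against 0.0508%. Motifs this rare would seldom be met in 54 windows, so their absence says nothing of ER stress control. The CCACG part alone, on either strand, was in 57.1% of the ER windows, 37% of the member windows and 31.6% of all promoters. The Man1c1 window held it at 40 from the start. The CCAAT box was in 42.9% of the ER windows. CCACG contains a CG, and the part of base composition in its share was not tested.

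The ER steps held 15 tested members and none passed; 3 of the 15 had a log2 fold change above 0 and 12 below. Among all features 49.5% were below 0. In the assembly of the dolichol-linked chain, the Alg and Dpm genes, 11 of 13 were below 0, with a median of -0.30. Under the other scalings, filters and sets of libraries, 10 to 12 were below 0. Groups did not overlap in 2 of the 13, Alg12 and Alg2, both lower in STZ. Of all features 20.3% did not overlap, 10.1% with STZ above and 10.3% with STZ below.

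Alg12, the mannosyltransferase that adds a late mannose in the ER lumen, had 169, 198 and 155 normalized counts in control and 124, 128 and 117 in STZ. This is a log2 fold change of -0.49 (SE 0.19), with an adjusted p of 0.246 in limma. Alg2, an early mannosyltransferase, had 111, 133 and 125 against 96.6, 91.0 and 91.4. The differences of both genes were under 1 log2 unit, and neither passed.

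Dpm1, the catalytic subunit of dolichol phosphate mannose synthase, had 1625, 1213 and 1020 normalized counts in control and 1209, 937 and 951 in STZ. Alg14, the anchor of the enzyme that adds the second GlcNAc, had 619, 565 and 451 against 496, 419 and 410. Both overlapped between groups, with log2 fold changes of -0.30. Alg8, a glucosyltransferase, had the highest log2 fold change of the step, 0.30 (SE 0.22), with 119, 73.2 and 91.3 against 120, 116 and 107.

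Stt3a, a catalytic subunit of the oligosaccharyltransferase, was the one member tested at that step. Stt3b was not analysed here. It varied more within groups than between them, with 2021, 1073 and 268 normalized counts in control and 1477, 1601 and 810 in STZ. Its log2 fold change was 0.57 with an SE of 0.57 (limma, adjusted p = 0.751), and without control replicate 3 it was -0.25. Ganab, the catalytic subunit of glucosidase II, had 929, 889 and 1079 normalized counts in control and 684, 847 and 830 in STZ. All STZ libraries were below the controls, and the log2 fold change of -0.30 (SE 0.18) did not pass, with an adjusted p of 0.517 in limma. The interval between Ganab and LOC690349 held at most 0.929 normalized counts.

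Besides Man1c1, 3 mannosidases of the trimming steps were tested. Man1b1, an ER mannosidase with a part in the disposal of misfolded proteins, had 243, 290 and 217 normalized counts in control and 342, 261 and 264 in STZ. Man2a1, the Golgi mannosidase II, had between 109 and 122 in all 6 libraries and a log2 fold change of -0.02 (SE 0.19). Man1a1, a Golgi mannosidase of the same class as Man1c1, had a log2 fold change of 0.18 (SE 0.42). The catabolic enzymes Man2b1 of lysosomes and Man2c1 of the cytosol had log2 fold changes of 0.32 (SE 0.24) and 0.24 (SE 0.18). The rise of Man1c1 was the only call among these 6 mannosidases, and its difference from the other members was not tested.

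**Figure D3:**
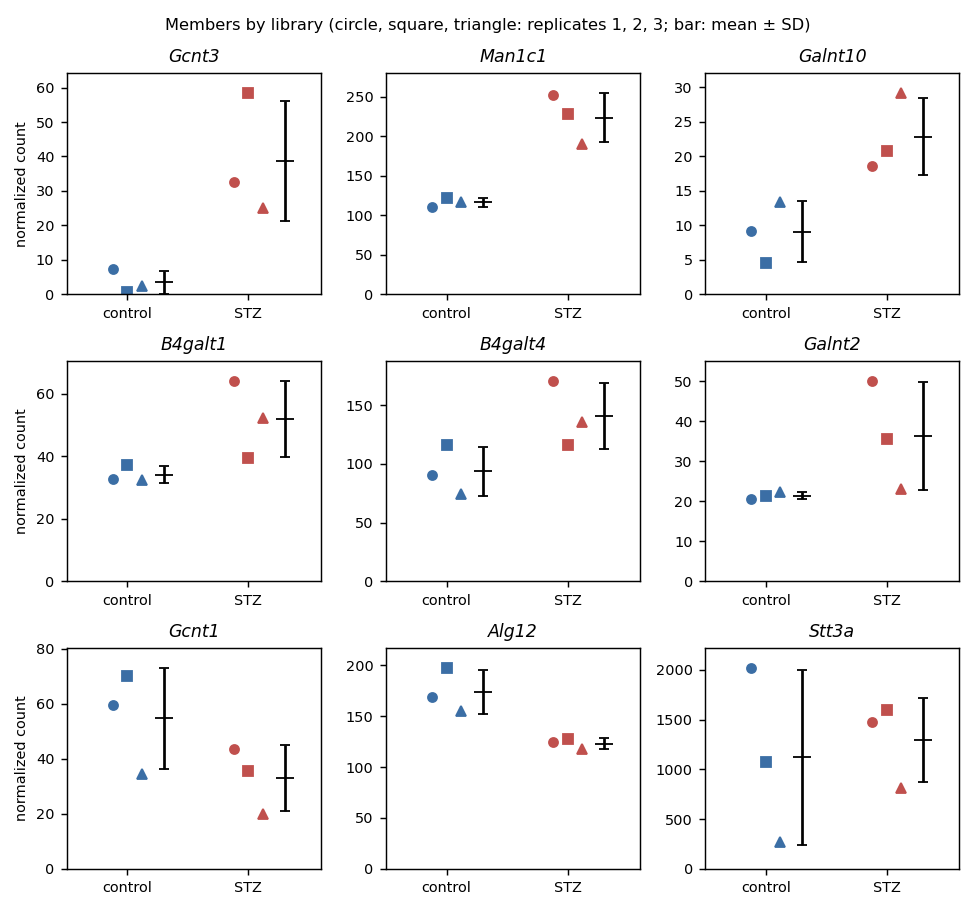
Normalized counts of 9 members are plotted for each library (circle, square and triangle for replicates 1, 2 and 3) with the group mean and SD. Of these 9, Gcnt3 and Man1c1 passed the limma test. Stt3a and Gcnt1 overlapped between groups, and Alg12 was lower in each STZ library without passing.

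The β1,4-galactosyltransferases, which add galactose to GlcNAc, glucose or xylose, were above 0 in log2 fold change in 6 of 6 tested members, with a median of 0.46. None passed. Over all features 50.5% were above 0. The count was 5 of 6 without control replicate 1 or without STZ replicate 2, where B4galt6 was below 0, and 6 of 6 under each other setting.

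B4galt4 had the largest log2 fold change of the group. Its level was 90.2, 116 and 74.6 normalized counts in control and 171, 116 and 136 in STZ. On the log2 scale the fold change was 0.59 with an SE of 0.24 (limma, adjusted p = 0.261), and the highest control library overlapped the lowest STZ library. B4galt1, the main Golgi enzyme of N-glycan galactosylation, had 32.8, 37.4 and 32.3 in control and 64.1, 39.6 and 52.2 in STZ. It did not overlap between groups (log2 fold change 0.57, SE 0.26, adjusted p = 0.34 in limma).

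B4galt5, a lactosylceramide synthase, had 16.4, 17.5 and 17.8 normalized counts against 20.4, 30.7 and 22.1, again without overlap and without passing. B4galt6, the other lactosylceramide synthase, overlapped widely, with 400, 484 and 758 against 672, 806 and 378. B4galt3 had 186, 211 and 77.9 against 305, 165 and 158. B4galt7, which builds the linker of proteoglycans, had a log2 fold change of 0.45 (SE 0.33). B4galt2 was too low to be tested.

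Both β1,3-galactosyltransferases that were tested were near the background, and neither passed. B3galt2 had 11.3, 6.10 and 10.02 normalized counts in control and 2.79, 2.97 and 17.1 in STZ. The merged B3galt5 feature, which pools the reads of both its genes, had 3.08, 8.39 and 12.2 against 5.57, 4.95 and 6.02. At this depth no difference could be detected in either.

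Of the B3gnt enzymes, 4 were tested and none passed. B3gnt7, which acts on keratan sulphate and lactosamine chains, had 49.2, 86.2 and 61.2 normalized counts in control and 95.6, 85.1 and 90.3 in STZ (log2 fold change 0.49, SE 0.24). B3gnt2, the main poly-N-acetyllactosamine synthase, had 58.4, 84.7 and 91.3 against 41.8, 60.3 and 67.3 (log2 fold change -0.46, SE 0.26). These enzymes lay on opposite sides of 0, and both overlapped between groups. B3gnt1 in this annotation is the gene that RefSeq now names B4gat1, a glucuronyltransferase of O-mannose glycans, and its log2 fold change was 0.20 (SE 0.29).

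The Galnt enzymes, which start mucin-type O-glycans, had 7 tested members and no call, and 5 of the 7 were above 0. The 5 include Galntl1, which was near the background (log2 fold change 0.15, SE 1.05). It had 2.05, 4.58 and 6.68 normalized counts in control and 0, 7.91 and 19.1 in STZ. With a control mean of 4.44, Galntl1 met the minimum for testing through its level in STZ. Galnt10, which prefers peptides that already carry GalNAc, had 9.23, 4.58 and 13.4 normalized counts in control and 18.6, 20.8 and 29.1 in STZ. The groups did not overlap, and limma gave a log2 fold change of 1.32 (SE 0.44, 95% interval 0.36 to 2.29) at an adjusted p of 0.167. Over the alternatives that gave an adjusted p for Galnt10 it ran from 0.0755 to 0.442, and DESeq2 gave none.

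Galnt2, a widely expressed initiating enzyme, had 20.5, 21.4 and 22.3 normalized counts in control and 50.1, 35.6 and 23.1 in STZ. The groups did not overlap, although STZ replicate 3 was close to the controls (log2 fold change 0.67, SE 0.32, adjusted p = 0.372 in limma). Galnt7 had 216, 159 and 142 against 250, 253 and 160, and Galnt1 had 190, 198 and 226 against 154, 199 and 197. Their log2 fold changes were 0.34 (SE 0.24) and -0.16 (SE 0.19).

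The protein O-mannosyltransferases Pomt1 and Pomt2 act as a pair on α-dystroglycan and lay on opposite sides of 0. Pomt1 had 192, 237 and 193 normalized counts in control and 147, 208 and 144 in STZ (log2 fold change -0.33, SE 0.21). Pomt2 had 16.4, 14.5 and 14.5 against 21.4, 19.8 and 21.1, without overlap (log2 fold change 0.43, SE 0.31). Neither passed.

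Of the 5 mucin genes, Muc20 and Muc16 were tested. Muc20, a membrane mucin known from kidney, had 5594, 5144 and 4555 normalized counts in control and 4737, 7479 and 5437 in STZ, and the groups overlapped (log2 fold change 0.19, SE 0.23, adjusted p = 0.825 in limma). Muc16, a large membrane mucin of epithelia, was at or near the background with 2.05, 3.81 and 13.4 against 0, 10.9 and 13.1. Its log2 fold change of -0.11 had an SE of 1.05 and changed sign with the setting. Muc13, Muc15 and Muc5b were too low to be tested and had at most 11.1 normalized counts in a library.

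**Figure D4:**
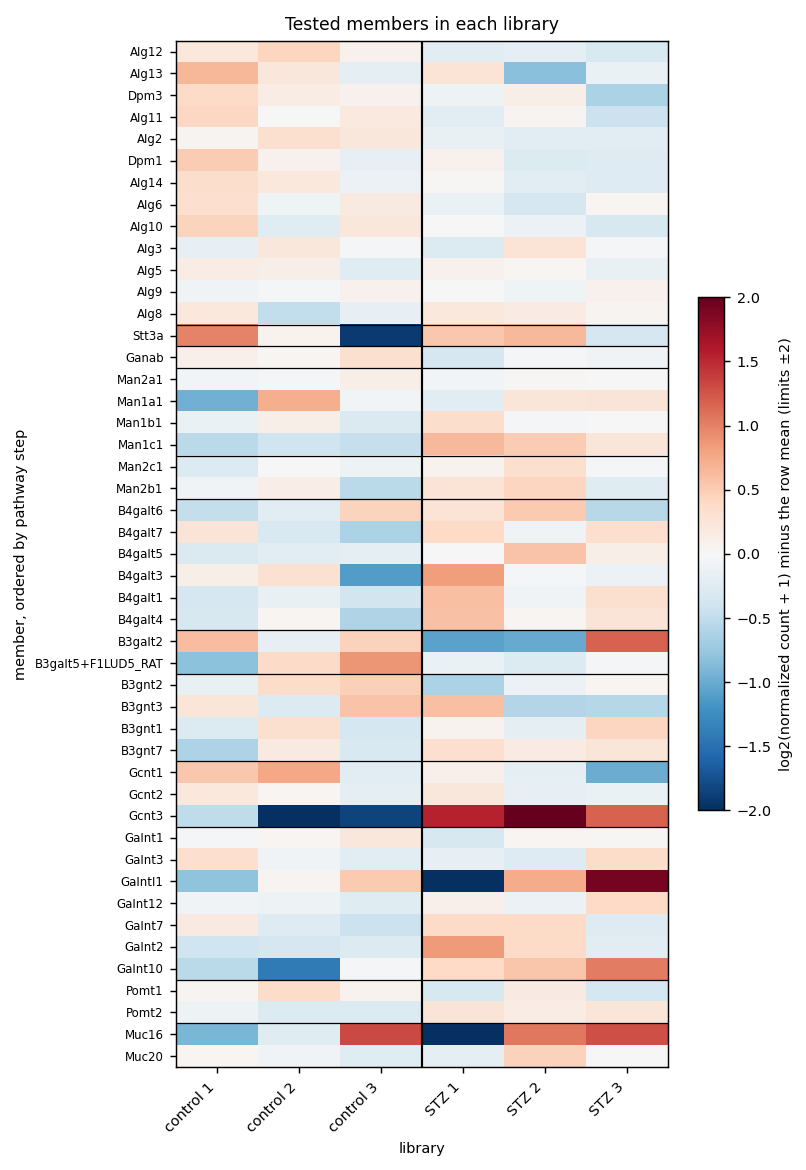
Each tested member is drawn as a line of 6 cells, one a library, coloured by its log2(normalized count + 1) minus its mean over the libraries, with colours limited to 2 on either side and black lines between pathway steps. Gcnt3 is blue in the controls and red in the STZ libraries, Man1c1 is paler with the same order, and most other members show no split between the groups.

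Across the tested members, 10 of 47 did not overlap between groups, beside 20.3% of all features. Man1c1, B4galt1, B4galt5, Gcnt3, Galnt10, Galnt2 and Pomt2 were higher in each STZ library, and Alg12, Alg2 and Ganab lower.

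The members that were not tested were near the background. They comprise 16 single genes and the 13 intervals between genes. The single genes had means of 0.165 to 4.84 normalized counts, and 5 of them (B3gnt4, B3gnt6, B3gnt9, Galnt5 and Muc15) never exceeded 3 reads in a library. None exceeded the olfactory receptor percentile in all 6 libraries, and 7 exceeded it in none. The intervals between genes held at most 6.92 normalized counts, and 11 of the 13 never exceeded 3 reads. Differences between the groups were not detectable for these members at this depth.

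The 21 members that are genes with a mean under 10, tested or not, were low together. Their median was 1.03 (replicate 1), 3.05 (replicate 2) and 5.57 (replicate 3) in the control group, and 0.929, 2.97 and 5.02 normalized counts in the STZ group. Replicate 1 was the lowest and replicate 3 the highest in both groups, for these genes as for the olfactory receptors. At least 1 read was found for 13, 18 and 20 of the 21 in control and 12, 20 and 19 in STZ.

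**Figure D5:**
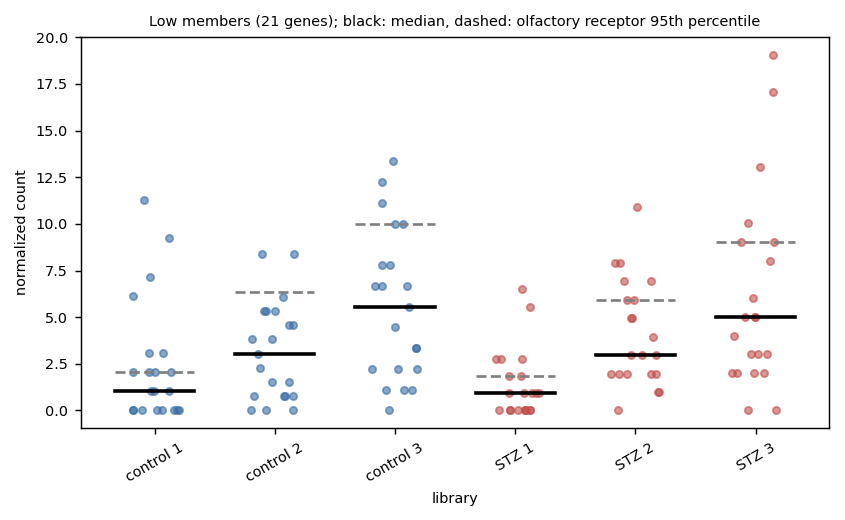
Normalized counts of the 21 members with a mean under 10 are plotted in each library, with their median (black line) and the 95th percentile of olfactory receptor genes (dashed line). The median and the dashed line move together, from 1.03 and 2.05 in control replicate 1 to 5.57 and 10.02 in control replicate 3.

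The other genes of these pathways, from a list made beside the members, were examined in the same fit. Of 70 listed genes 57 were found and tested, and 1 passed, beside 2.1% of all features. That gene was Pmm1, a phosphomannomutase that makes mannose 1-phosphate, the precursor of GDP-mannose. Pmm1 had 590, 627 and 376 normalized counts in control and 1063, 1232 and 996 in STZ, with no overlap. It rose by a log2 fold change of 1.07 (SE 0.22, 95% interval 0.59 to 1.56), with an adjusted p of 0.0357 in limma. It passed in 1 of the 6 fits that left out a library, that without control replicate 3, with adjusted p-values from 0.0456 to 0.154. Pmm2, the enzyme of the same reaction whose loss causes a glycosylation disorder, had a log2 fold change of -0.05 and did not pass.

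Of the 57 genes, 16 did not overlap between groups, 9 higher and 7 lower in STZ, beside 20.3% of all features (10.1% higher and 10.3% lower). The accessory subunits of the oligosaccharyltransferase had 4 tested members, all above 0, and Tusc3 was the largest, with 260, 221 and 538 normalized counts in control and 684, 1054 and 547 in STZ (log2 fold change 1.22, adjusted p = 0.0956 in limma). Among 12 ER lectins and quality control genes, Manea, the Golgi endomannosidase, had 56.4, 37.4 and 26.7 against 19.5, 10.9 and 16.1 (log2 fold change -1.29, adjusted p = 0.0996 in limma). In DESeq2 Tusc3 passed, with an adjusted p of 0.0137. With limma blocked on replicate number Manea passed, with an adjusted p of 0.0482. Neither passed in the reported limma comparison, and they are named, like Pmm2, after their values were seen.

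Of the 11 core 1, O-mannose and O-fucose enzymes, 6 were above 0 and none passed, and the groups did not overlap in 6, beside the same 20.3% of all features. Pomgnt1, which extends O-mannose, had 85.1, 78.6 and 99.1 normalized counts against 146, 156 and 124 (log2 fold change 0.69, adjusted p = 0.119 in limma). C1galt1c1, the chaperone of the core 1 enzyme, had a log2 fold change of -0.42, and C1galt1 itself one of -0.24. Of the 7 dolichol carrier genes none passed. Of the 23 hexosamine and nucleotide sugar genes, 14 were above 0 and Pmm1 alone passed.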

How the data were processed

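RNA from the IM tip of 3 control and 3 STZ rats was amplified as cDNA by PCR and sequenced on a HiSeq2000. Per the submitters' processing notes, reads were aligned to rn4 with STAR 2.3.1t and normalized with DESeq 1.16.0; the authors counted uniquely mapped reads on Ensembl genes, and the use of strand is not given in the sources used here. What the authors deposited is a signal, the reads of a feature over the size factor of the library, called normalized count in the text. Values were whole multiples of a step per library (tolerance 1e-06), from which whole reads were recovered. Reads are not independent molecules, so the floor of 3 reads covers counting error only.

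Groups were compared with limma 3.58.1 (R 4.3.3) on log2(normalized count + 1), a pseudocount of 1, with an intensity trend, over features with a mean of at least 5. Adjustment followed Benjamini and Hochberg, and an adjusted p under 0.05 passed. Fold changes on this scale understate the change of low genes. The exact permutation test was two-sided. Scripts were tested on simulated data. Alternatives were edgeR 4.0.16 and DESeq2 1.42.0 on recovered reads, pseudocounts of 0.5 and 5, minimum means of 1 and 20 and no filter, quantile normalization, equal totals, no trend, a replicate block and each library left out. The edgeR fit with the block and the fit without replicate 3 of both groups were added after seeing the data. Python 3.11.15 was used for tables and figures, with pandas 2.3.3, numpy 2.4.6 and matplotlib 3.10.9.

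Members named with values are those that passed, the 2 highest means per pathway step, the largest rise and fall per step, and other pathway genes that passed. Alg2, B4galt1, B4galt5, B4galt7, B3gnt1, Galnt2, Galntl1, Man1a1, Tusc3, Manea, Pomgnt1, Pmm2, C1galt1 and C1galt1c1 lie outside this rule and were chosen after their values were seen. The members, pathway lists and marker lists were chosen with earlier results of these data known. Promoter windows are those of RefSeq on GRCr8, and all other coordinates are of rn4 as deposited. Apart from the ranking by mean that picks named members, the marker sums and the olfactory receptor background, levels were not compared between genes. Transcript lengths were not used here.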

Additional observations from a re-analysis of the deposited data

How the results depend on the processing

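With 3 rats a group and 3412311 to 5575171 reads on features a library, the calls depend on the fit. Counts of features that passed were 283 in the reported comparison, 522 with quantile normalization, 31 without the intensity trend, 597 in DESeq2, 561 with the replicate block in limma, 544 with the block in edgeR, and 88 to 352 with a library left out, lowest without STZ replicate 2 and highest without control replicate 3. The members that passed were 2 in the reported comparison, 0 without the trend, 1 without replicate 3 of both groups, and 0 to 2 with a library left out. They were 0 without control replicate 2 or STZ replicate 2, and 1 without control replicate 1, STZ replicate 1 or STZ replicate 3. The number that passed among other pathway genes was 1 in the reported comparison, 2 with no filter, 0 without the trend, 2 in DESeq2, 2 with the block in limma and in edgeR (Pmm1 and Manea, the latter lower at 0.0482 in limma), and 0 to 2 with a library left out. The causes were not tested.

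Over the 29 tested genes named by the rule, 546 comparisons with an alternative were made. Of these, 511 kept their direction and side of the threshold, and 17 kept the direction and missed the threshold. A further 18 changed direction, in 7 genes that did not pass. The 17 were all of genes that passed, 3 of 19 for Gcnt3, 7 of 19 for Man1c1 and 7 of 19 for Pmm1. Genes that did not pass could not miss the threshold. Where DESeq2 gave no adjusted p, the gene was counted as not passing. With a library left out, log2 fold changes ran from -0.78 to 0.071 for the merged B3galt5 feature, -0.064 to 0.48 for B4galt6, -0.17 to 0.053 for Gcnt2, -0.056 to 0.029 for Man2a1, -0.79 to 1.12 for Muc16, -0.0013 to 0.33 for Muc20 and -0.25 to 1.21 for Stt3a. Stt3a was below 0 without control replicate 3. Without replicate 3 of both groups, the merged B3galt5 feature was at 0.015 and Man2a1 at 0.026. Muc16 was at 0.11 with a pseudocount of 5, 0.080 with quantile normalization, 0.33 in edgeR, 0.32 in DESeq2 and 0.33 in edgeR with the block. No scaling moved the median of all features by over 0.1.

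The groups share replicate numbers in the labels. Deviations of same-numbered libraries correlated at 0.395, -0.0612 and 0.323 for replicates 1, 2 and 3 over 9315 features. Control replicate 3 and STZ replicate 1 correlated at -0.472, and control replicate 1 and STZ replicate 3 at -0.279. Each deviation was taken from the mean of its group, so the deviations within a group cancel. A positive correlation with 1 library of the other group therefore forces a negative one with another. The reported comparison did not use the numbers as a block, and an effect shared by same-numbered libraries was not tested. STZ replicate 2 correlated most with control replicate 3, at 0.22. With the replicate block, the same 2 members passed, at 0.0114 for Gcnt3 and 0.0217 for Man1c1 in limma.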
